A study of Mus musculus with 8 samples.

Results

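RNA of astrocyte marker genes was measured in the hippocampus of C57BL/6J wild-type male mice at 20 weeks of age. The 35 genes were chosen by symbol from a list of astrocyte markers, and all 35 were found among the 24527 gene rows of the count table. The BPA group was 4 mice whose dams were fed chow low in phytoestrogens that carried 50 mg per kg of bisphenol A (BPA), a building block of plastics that binds oestrogen receptors, through pregnancy and nursing. The control group was 4 mice whose dams were fed the same chow with 0 mg of BPA per kg. Every mouse ate the control chow after weaning on postnatal day 21, so BPA feeding had ended before sampling. The RNA came from whole dissected hippocampus and not from sorted astrocytes. Fewer astrocytes and less RNA per astrocyte therefore cannot be told apart in these values. The groups are described as independent biological replicates, but no source used here gives their litters. The p-values therefore measure only the spread among these mice.

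Astrocytes are the glial cells that buffer water, potassium and transmitters around synapses, feed neurons and contact blood vessels with their endfeet. They are coupled into networks by gap junctions, and after injury they enlarge and make more intermediate filament protein such as Gfap. In the hippocampus they surround the synapses of the dentate gyrus and of Ammon's horn, and Gfap also marks the neural stem cells of the dentate gyrus.

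No astrocyte marker gene passed the test between BPA and control mice. Of the 35 genes, 0 had an edgeR adjusted p under 0.05, where 0% of the 15434 genes tested did (edgeR quasi-likelihood test with Benjamini-Hochberg adjustment over all genes). The lowest adjusted p among the 35 was 0.955. By DESeq2, 0 of the 35 and 0.0454% of the 15434 genes passed. For 34 of the 35 genes (97.1%) the 95% interval of the change stayed within 1.5-fold in both directions, and over all genes tested that share was 85.4%. It was 100% for neuron, oligodendrocyte lineage and microglia markers and for 34 further astrocyte genes, and 93.3% for endothelial and pericyte markers. It was 55.2% for reactive astrocyte genes, 20% for meningeal fibroblast markers and 0% for choroid plexus and ependymal markers. Among the 35 genes, Gpr37l1 was the exception. The median log2 fold change of the 35 was 0.012, and the median over all genes tested was 3.87e-05.

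The point estimates leaned upward in number but not in size. They were positive for 23 of the 35 genes (65.7%), against 50% of all genes tested, and that count was 21 with relative log expression scaling, 18 without BPA replicate 4, 19 without BPA replicate 3 and 17 with BPA replicate 3 and Control replicate 2 both left out. Genes read in the same libraries are not independent, so these counts are a description. At an unadjusted p under 0.05 there were 5 of the 35 genes (14.3%), against 4.52% of all genes tested. That share was 18.8% for oligodendrocyte lineage markers, 13.3% for neuron markers, 10% for ependymal markers and 6.67% for endothelial and pericyte markers. It was 0% for microglia, choroid plexus and meningeal fibroblast markers. Of the 5 astrocyte genes, 3 had positive estimates (Sparcl1, Mt3 and Ntsr2), where 2.22% of all genes tested did. The other 2 had negative ones (Gpr37l1 and Slc39a12), where 2.3% did. DESeq2 also gave 5 of the 35 at that threshold, and 587 of 15434 genes tested. For other settings, the count over all genes tested follows the count of members in brackets. With libraries thinned to the smallest total, the count of members was 2 (667 of 14908). With BPA replicate 3 and Control replicate 2 both left out it was 3 (896 of 15412). It was 2 without BPA replicate 2 (354 of 15545), Control replicate 2 (675 of 15487) or Control replicate 4 (649 of 15530). Without BPA replicate 4 it was 3 (609 of 15531). The CPM (counts scaled to the library's total, with TMM factors) of the groups did not overlap for 1 of the 35 genes, Slc39a12, or 2.86%, against 2.79% of all genes tested.

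**Figure D1:**
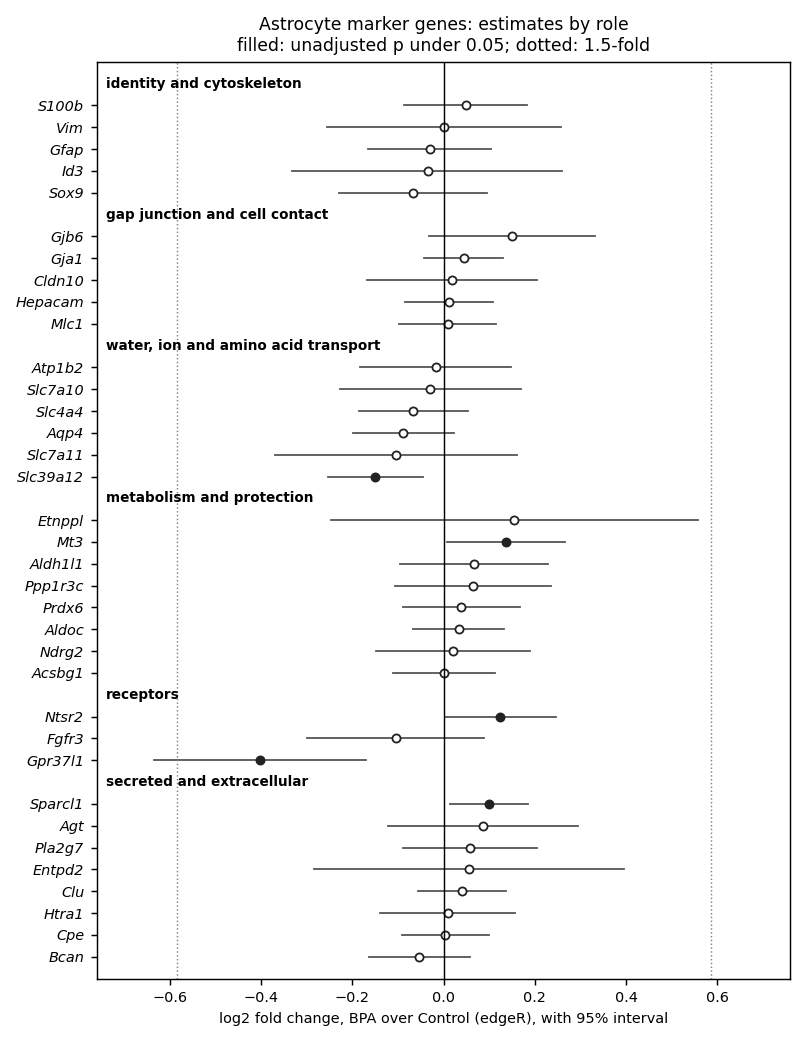
Log2 fold change of each of the 35 astrocyte marker genes, BPA over control, with the 95% interval from edgeR, grouped by role. Filled points mark the 5 genes at an unadjusted p under 0.05, dotted lines mark 1.5-fold, and the interval of Gpr37l1 alone crosses one of them.

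Libraries held 43.1 to 54.0 M counts (43119986 to 54013884 reads) in BPA mice and 27.1 to 40.8 M counts in controls, so every BPA library was deeper than every control library, and exposure and depth cannot be told apart by group. All 35 genes passed the filter on low counts, and the smallest count of any of them in 1 library was 89 reads, for Entpd2 in Control replicate 4. Markers of tissue next to the hippocampus differed between libraries. The summed CPM of 12 choroid plexus markers was 44.5 to 495 in BPA mice and 73.4 to 2024.5 in controls, highest in BPA replicate 3 and in Control replicate 2. Of the 10 meningeal fibroblast markers tested, 10 lay above their mean in each of those 2 libraries, and 9 did in Control replicate 1.

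As a group the 35 genes were abundant. Per kb of annotated exon, their median level was 24.9 CPM, against 3.80 CPM for all tested genes with a known length. On the same scale the median was 102 CPM for 15 neuron markers, 15.04 CPM for 16 oligodendrocyte lineage markers and 6.90 CPM for 15 microglia markers. Of the 35 genes, 33 stood above the median gene. Sparcl1, a secreted matrix protein that promotes synapse formation, was highest at 824 ± 40.7 CPM per kb, followed by Cpe, a peptide-processing enzyme that neurons also make, at 765 ± 31.2 CPM per kb (SD over 8 libraries). The ranges of those 2 genes overlapped, and both stood clear of the next gene, Clu, at 193 CPM per kb.

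The middle of the order was closely packed. Gfap, at 81.1 ± 5.38 CPM per kb, overlapped neither Aldoc above it nor S100b below it. From Slc4a4 at 28.3 to Slc7a10 at 4.66 CPM per kb, each gene's range over the 8 libraries overlapped that of its neighbour. The lowest were Etnppl, an enzyme that breaks down phosphoethanolamine, at 2.34 ± 0.578 CPM per kb and Entpd2, an ectoenzyme that cleaves extracellular ATP, at 1.64 ± 0.271 CPM per kb (SD over 8 libraries). Exon lengths were the union over all annotated GENCODE transcripts, which lowers the value of genes with long minor isoforms, while the counts follow refGene. The place of Etnppl rests on its length of 8262 bases. Before division by length it was at 20.4 CPM in BPA mice and 18.3 CPM in controls. Slc7a10, placed above it, was at 9.74 CPM in BPA mice and 9.93 CPM in controls.

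**Figure D2:**
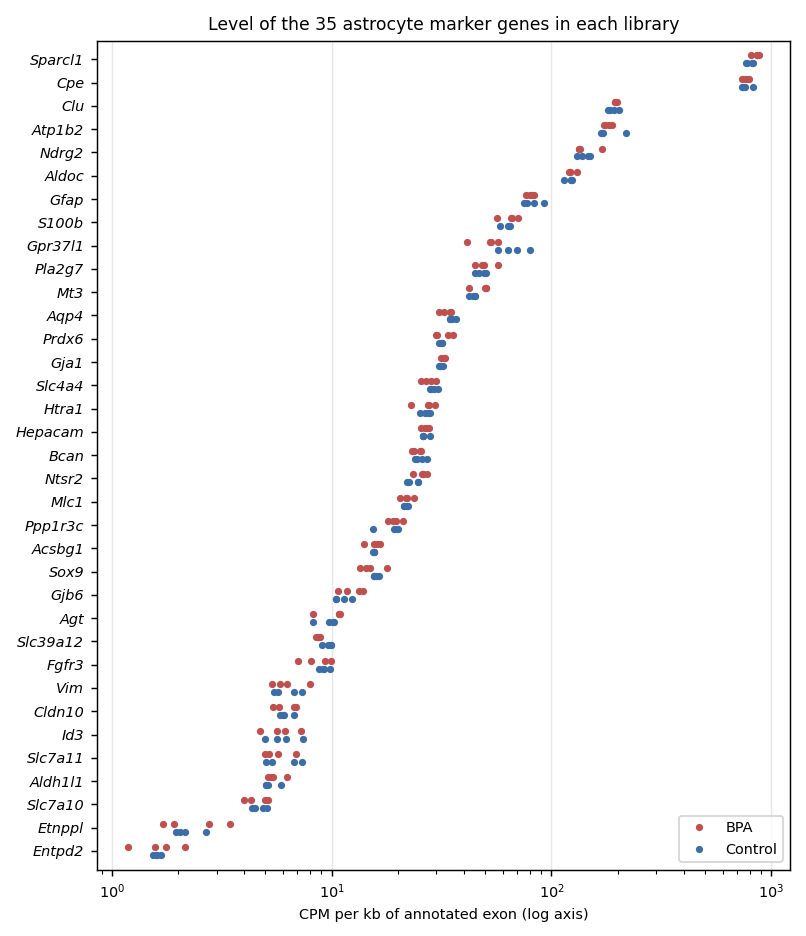
CPM per kb of annotated exon on a log axis for the 35 genes, 1 point per library, BPA points above control points in each row. Sparcl1 and Cpe stand apart at the top, Etnppl and Entpd2 at the bottom, and the points of the groups overlap for every gene except Slc39a12.

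Of the 5 genes at an unadjusted p under 0.05, 4 had an entry in the RefSeq promoter table used here, and their start regions are shown so that the genes the next results turn on can be placed. Sparcl1, like Aqp4, Atp1b2, Clu, Cpe, Prdx6 and Sox9, is named only. Each run is 5′ to 3′ on the gene's strand in the GRCm38.p6 build, is taken from the bases before the RefSeq start, and leaves out those that GENCODE annotates as transcribed (82 bases for Slc39a12 and 88 for Ntsr2). Capitals mark a match to 1 of the 4 motifs described after them.
Gpr37l1, chr1:135167682-135167931, minus strand: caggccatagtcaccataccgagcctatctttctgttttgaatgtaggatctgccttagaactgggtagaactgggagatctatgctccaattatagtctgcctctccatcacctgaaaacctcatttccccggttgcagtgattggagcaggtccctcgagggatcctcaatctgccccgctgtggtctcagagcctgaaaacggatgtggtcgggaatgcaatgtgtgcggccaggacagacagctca
Slc39a12, chr2:14388148-14388315, plus strand: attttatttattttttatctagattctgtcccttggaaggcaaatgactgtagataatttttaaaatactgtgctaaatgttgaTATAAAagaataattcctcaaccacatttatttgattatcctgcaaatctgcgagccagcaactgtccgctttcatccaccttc
Mt3, chr8:94152357-94152606, plus strand: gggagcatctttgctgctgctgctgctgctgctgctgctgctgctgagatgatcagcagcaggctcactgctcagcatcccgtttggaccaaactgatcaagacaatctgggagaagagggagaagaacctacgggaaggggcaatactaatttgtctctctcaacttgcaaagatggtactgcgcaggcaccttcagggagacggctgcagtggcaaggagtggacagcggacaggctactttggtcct
Ntsr2, chr12:16653220-16653381, plus strand: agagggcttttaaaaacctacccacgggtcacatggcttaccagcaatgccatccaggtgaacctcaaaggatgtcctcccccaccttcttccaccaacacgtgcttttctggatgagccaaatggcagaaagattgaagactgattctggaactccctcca
The motifs were TATAAA (the TATA box), TTGGCA (a half-site of nuclear factor I), TTCNNNGAA (a STAT site) and ACAATG (a SOX site), read on both strands in the 250 bases before each start. Of the runs shown, Slc39a12 alone held a match, a TATAAA that begins 166 bases before its RefSeq start and overlaps no other motif, while the TTCNNNGAA match of Ntsr2 lies in the bases left out. Over the 35 promoters of the 28 members with an entry, TATAAA was in 4 (11.4%), TTGGCA in 4 (11.4%), TTCNNNGAA in 6 (17.1%) and ACAATG in 0. Of all 32851 promoters in the table, 12.4%, 12.3%, 7.02% and 10.7% held them, in the same order of motifs. The 6 genes with TTCNNNGAA were Acsbg1, Agt, Aldoc, Ntsr2, Pla2g7 and Slc7a11. The shares of the members rest on few promoters, some of them of the same gene, and their difference from all promoters was not tested. A match is only a run of letters, and binding was not measured.

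Among the receptors, Gpr37l1, an orphan G protein-coupled receptor of astrocytes for which prosaposin peptides have been proposed as ligands (chromosome 1, 135160234 to 135167681), had the smallest p of the 35 genes. It was at 121, 93.9, 119 and 130.3 CPM in BPA replicates 1 to 4, and at 130.2, 144, 158 and 182 CPM in Control replicates 1 to 4. The groups met at BPA replicate 4 and Control replicate 1 and were otherwise apart. The means were 116 ± 15.5 CPM in BPA mice and 153 ± 22.2 CPM in controls (SD, n = 4 each). The log2 fold change of Gpr37l1 was -0.40 ± 0.11, which is 0.756-fold (95% interval 0.644 to 0.888, edgeR unadjusted p = 0.00254, adjusted p = 0.955). Here and below, the value after ± is a standard error where it follows a log2 fold change. The estimate of Gpr37l1 stayed negative whichever 1 library was left out, from -0.47 without Control replicate 1 to -0.31 without Control replicate 4.

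The level of Gpr37l1 followed library total among the controls. Control libraries of 40.8, 36.3, 31.1 and 27.1 M counts had 130.2, 144, 158 and 182 CPM, so the shallower the control library, the higher the value. Among BPA libraries the deepest, at 54.0 M counts, had the lowest value, 93.9 CPM, and the other 3, at 43.1 to 44.0 M counts, had 119 to 130.3 CPM. With every library thinned to the smallest total the log2 fold change was -0.40. The part of library total, or of what moves with it, in the group difference cannot be told apart from BPA, because no BPA library was as shallow as a control library.

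**Figure D3:**
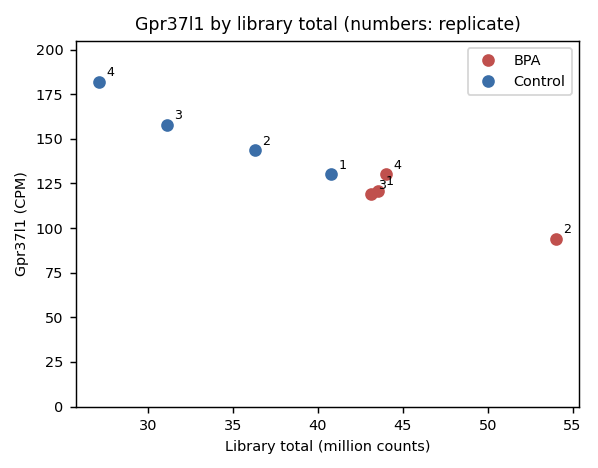
CPM of Gpr37l1 in each library against library total, with replicate numbers beside the points. The BPA points lie at the right, at 93.9 to 130.3 CPM, and the control points are lower the deeper the library, from 182 CPM in replicate 4 down to 130.2 CPM in replicate 1.

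The other receptors differed by less. Ntsr2, a low-affinity neurotensin receptor found on astrocytes in the brain (chromosome 12, 16653382 to 16660227), was at 80.2, 81.6, 73.3 and 84.4 CPM in BPA replicates 1 to 4 and at 77.4, 68.9, 76.8 and 70.1 CPM in Control replicates 1 to 4. The groups overlapped through BPA replicate 3. Its log2 fold change was 0.12 ± 0.056 (edgeR unadjusted p = 0.0469), and the unadjusted p ran from 0.011 to 0.141 on leaving out 1 library. Fgfr3, a fibroblast growth factor receptor, was at 61.5 ± 9.34 CPM in BPA mice and 66.1 ± 3.03 CPM in controls (SD, n = 4 each; log2 fold change -0.11 ± 0.089). Its estimate was -0.18 without BPA replicate 3 (unadjusted p = 0.0433 by edgeR) and -0.021 without BPA replicate 4. Fgfr3 shares exon bases with a transcript on the opposite strand, and no source used here says whether reads were counted by strand, so its counts are uncertain.

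None of the 6 transport genes had a positive estimate, from -0.15 for Slc39a12 to -0.017 for Atp1b2, and their median log2 fold change was -0.077. Slc39a12, a zinc transporter (chromosome 2, 14388316 to 14494977), was at 26.3, 26.6, 25.4 and 26.0 CPM in BPA replicates 1 to 4, and at 29.7, 29.9, 27.2 and 28.8 CPM in Control replicates 1 to 4. Every BPA mouse lay below every control mouse. The means were 26.1 ± 0.516 CPM in BPA mice and 28.9 ± 1.23 CPM in controls (SD, n = 4 each), a log2 fold change of -0.15 ± 0.048 (edgeR unadjusted p = 0.0085, adjusted p = 0.955). With libraries thinned to the smallest total it was -0.11, with an unadjusted p of 0.0534.

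Aqp4, the water channel of astrocyte endfeet (chromosome 18, 15389496 to 15410982), was at 202, 216, 219 and 192 CPM in BPA replicates 1 to 4, and at 215, 230.5, 215 and 220.4 CPM in Control replicates 1 to 4. BPA replicates 1 and 4 lay below every control, and the other 2 lay among the controls. Its log2 fold change was -0.088 ± 0.051, or 0.941-fold with 0.871 to 1.02 as its 95% interval (-0.053 without BPA replicate 4). Slc4a4, a sodium bicarbonate cotransporter that sets pH (chromosome 5, 88886818 to 89239653), was at 275, 291, 307 and 323 CPM in BPA replicates 1 to 4 and at 305, 302.5, 317 and 328 CPM in Control replicates 1 to 4. The groups overlapped, and the estimate of -0.066 ± 0.055 was -0.028 without BPA replicate 1.

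The amino acid exchangers and the sodium pump subunit varied mostly within groups. Slc7a11, which imports cystine in exchange for glutamate, was at 79.4 ± 11.9 CPM in BPA mice and 85.1 ± 15.4 CPM in controls, and Slc7a10, which carries small neutral amino acids such as D-serine, at 9.74 ± 1.13 CPM in BPA mice and 9.93 ± 0.724 CPM in controls (SD, n = 4 each). The estimate of Slc7a11, -0.11 ± 0.12, was -0.21 when BPA replicate 3 was left out and -0.0054 when Control replicate 1 was. Slc7a10 shares exon bases with Lrp3 on the opposite strand, which leaves its counts uncertain. Atp1b2, the beta subunit of the glial sodium pump, was at 748, 712, 772 and 708 CPM in BPA replicates 1 to 4 and at 699, 697, 891 and 687 CPM in Control replicates 1 to 4. Control replicate 3 stood far above the other controls, and without it the log2 fold change of Atp1b2 was 0.082 in place of -0.017 (0.00096 without BPA replicate 4). That of Slc7a10, -0.029 with all libraries, was 0.035 without BPA replicate 2, 0.00084 without BPA replicate 4 and 0.015 without Control replicate 2.

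All 5 genes of gap junctions and cell contact had positive estimates, with a median log2 fold change of 0.018. Gjb6, which encodes connexin 30 (chromosome 14, 57123303 to 57133611), was at 28.5, 31.4, 35.8 and 37.2 CPM in BPA replicates 1 to 4 and at 33.1, 28.1, 30.3 and 28.1 CPM in Control replicates 1 to 4. BPA replicates 3 and 4 lay above every control, and the other 2 lay within the control range. Its log2 fold change was 0.15 ± 0.084 (edgeR unadjusted p = 0.0976), and on leaving out 1 library it ran from 0.092 without BPA replicate 4 (unadjusted p = 0.293) to 0.22 without BPA replicate 1 (unadjusted p = 0.0163).

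Gja1, which encodes connexin 43, the other main astrocyte connexin (chromosome 10, 56377330 to 56402513), was among the least variable of the 35. It was at 324, 336, 334 and 333 CPM in BPA replicates 1 to 4 and at 322, 315, 321 and 331 CPM in Control replicates 1 to 4. The groups overlapped only through BPA replicate 1 and Control replicate 4. The log2 fold change was 0.044 ± 0.040, or 1.03-fold with 0.971 to 1.09 as its 95% interval. Hepacam, an adhesion protein that anchors Mlc1 at astrocyte junctions, was at 89.6 ± 3.42 CPM in BPA mice and 88.8 ± 3.07 CPM in controls, and Mlc1 itself at 61.4 ± 3.66 CPM in BPA mice and 61.03 ± 1.40 CPM in controls (SD, n = 4 each). Cldn10, a claudin, had a log2 fold change of 0.018 ± 0.085. The estimate of Cldn10 was -0.038 without BPA replicate 2, -0.024 without BPA replicate 4 and -0.0094 without Control replicate 1. Mlc1 was at -0.028 without BPA replicate 4 and -0.0020 without Control replicate 1, and Hepacam at -0.0080 without BPA replicate 3.

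Genes of astrocyte identity and cytoskeleton showed no shared direction, with 2 positive estimates (Vim was at -0.0013 with relative log expression scaling), 3 negative ones and a median of -0.030. Gfap, the intermediate filament protein that rises in reactive astrocytes (chromosome 11, 102887336 to 102900912), was at 350.5, 344, 336 and 324 CPM in BPA replicates 1 to 4 and at 326, 349.5, 389.5 and 318 CPM in Control replicates 1 to 4. All 4 BPA mice lay inside the range of the controls, which Control replicate 3 widened. The log2 fold change was -0.030 ± 0.062, or 0.979-fold with 0.892 to 1.07 as its 95% interval, and it was 0.032 without Control replicate 3.

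S100b, a calcium-binding protein that oligodendrocyte lineage cells also make (chromosome 10, 76253853 to 76261159), was at 98.2, 97.1, 84.3 and 105 CPM in BPA replicates 1 to 4 and at 94.3, 86.9, 95.7 and 94.8 CPM in Control replicates 1 to 4. The BPA values spread to both sides of the control values, and the estimate of 0.048 ± 0.062 was 0.0050 without BPA replicate 4, 0.017 without Control replicate 2 and 0.105 without BPA replicate 3. Sox9, a transcription factor of astrocyte nuclei (chromosome 11, 112782224 to 112787760), was at 74.1, 55.4, 59.5 and 61.9 CPM in BPA replicates 1 to 4 and at 64.5, 68.2, 65.7 and 64.5 CPM in Control replicates 1 to 4. BPA replicate 1 was the highest of all 8 libraries and the other 3 BPA mice were the lowest (-0.068 ± 0.075). The estimate of Sox9 was -0.16 without BPA replicate 1 (unadjusted p = 0.0108 by edgeR) and -0.012 without BPA replicate 2.

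Vim is an intermediate filament gene also used by vascular, meningeal and ependymal cells. Id3 is a transcriptional inhibitor also used by endothelial cells. Both were highest in BPA replicate 3 and Control replicate 2, which had the most choroid plexus, meningeal and endothelial marker RNA. Vim was at 29.8, 27.6, 37.7 and 25.3 CPM in BPA replicates 1 to 4 and at 32.0, 34.7, 27.0 and 26.1 CPM in Control replicates 1 to 4. BPA replicate 3 was the highest for Vim and Control replicate 2 the next. Id3 was at 10.1, 10.955, 13.1 and 8.46 CPM in BPA replicates 1 to 4 and at 11.1, 13.3, 10.1 and 8.91 CPM in Control replicates 1 to 4, and those 2 libraries were again the highest. For Vim the log2 fold change over all libraries was 0.00082, and it was -0.12, -0.046 and -0.058 without BPA replicate 3, Control replicate 3 and Control replicate 4, taken singly. For Id3 it was -0.035 over all libraries, 0.059 without BPA replicate 4 and 0.078 without Control replicate 2. Control replicate 1 came next for both genes. There the median deviation from the mean over 8 libraries was 0.567 log2 units for meningeal fibroblast markers. It was 0.068 for endothelial and pericyte markers and -0.438 for choroid plexus markers. The part of choroid plexus, meningeal and endothelial RNA in the values of Vim and Id3 was not tested.

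**Figure D4:**
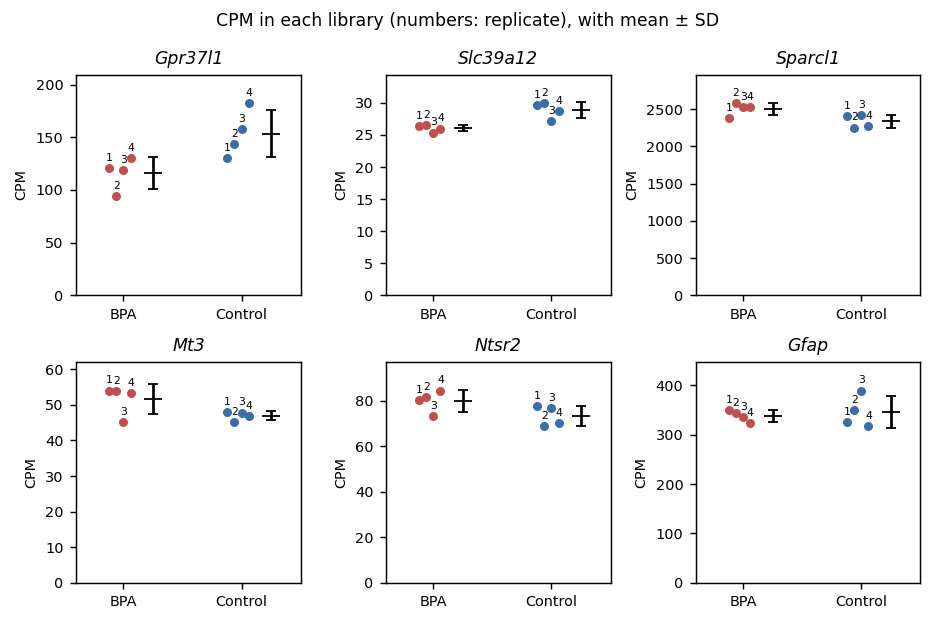
CPM of the 5 genes at an unadjusted p under 0.05 and of Gfap in each library, with replicate numbers and the mean ± SD of 4 mice per group beside the points. The groups separate for Slc39a12 and overlap for the other 5 genes.

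All 8 genes of metabolism and protection had estimates above 0, with a median of 0.052 and a largest value of 0.15, although Acsbg1 was at -0.0021 with relative log expression scaling. Mt3, a metallothionein that binds zinc and copper in the brain (chromosome 8, 94152607 to 94154146), was at 54.0, 53.8, 45.2 and 53.4 CPM in BPA replicates 1 to 4 and at 47.9, 45.1, 47.8 and 46.9 CPM in Control replicates 1 to 4. BPA replicates 1, 2 and 4 lay above every control, and BPA replicate 3 was among the controls. The means were 51.6 ± 4.29 CPM in BPA mice and 46.9 ± 1.32 CPM in controls (SD, n = 4 each), a log2 fold change of 0.14 ± 0.059 (edgeR unadjusted p = 0.0391, adjusted p = 0.955). On leaving out 1 library the unadjusted p ran from 0.00111 without BPA replicate 3 to 0.105 without BPA replicate 1.

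Aldh1l1, a folate enzyme used as a general astrocyte marker (chromosome 6, 90486427 to 90600203), was at 24.0, 24.5, 23.1 and 28.3 CPM in BPA replicates 1 to 4 and at 26.7, 22.7, 23.2 and 22.7 CPM in Control replicates 1 to 4. BPA replicate 4 and Control replicate 1 were highest, and the other 6 libraries lay together. The estimate of 0.067 ± 0.075 was 0.0021 when BPA replicate 4 was left out and 0.13 when Control replicate 1 was. Aldh1l1 shares exon bases with a transcript on the opposite strand and with another on the same strand, which leaves its counts uncertain. Aldoc, the brain form of the glycolytic enzyme aldolase, was at 403 ± 15.3 CPM in BPA mice and 394 ± 14.6 CPM in controls, and Prdx6, a peroxiredoxin, at 155 ± 14.0 CPM in BPA mice and 151 ± 2.77 CPM in controls (SD, n = 4 each). Acsbg1, a fatty acid activating enzyme, had a mean of 56.2 CPM in both groups, with an SD of 3.88 CPM in BPA mice and 0.267 CPM in controls.

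BPA replicate 4 stood high for several of these genes. Etnppl was at 14.2, 15.9, 22.9 and 28.5 CPM in BPA replicates 1 to 4 and at 17.8, 16.3, 22.1 and 16.9 CPM in Control replicates 1 to 4, the widest spread of the 35. The BPA mice held both the lowest and the highest values of Etnppl, and its biological coefficient of variation was 18.0%. Ndrg2, a cytoplasmic protein of astrocytes, was at 455, 457, 455 and 576 CPM in BPA replicates 1 to 4 and at 499, 466, 509 and 442 CPM in Control replicates 1 to 4. Without BPA replicate 4 the log2 fold changes were -0.050 for Etnppl, -0.072 for Ndrg2 and -0.032 for Acsbg1, in place of 0.15, 0.020 and 0.00012. Ndrg2 was also at -0.017 without Control replicate 4, and Acsbg1 at -0.014 without BPA replicate 1 and -0.0029 without Control replicate 2. Ppp1r3c, which directs glycogen synthesis, had a log2 fold change of 0.064 ± 0.079, or -0.018 without Control replicate 2, and Prdx6 had 0.039 ± 0.059, or -0.011 without BPA replicate 3.

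Of the 8 secreted and extracellular genes, 7 had positive estimates, with a median of 0.048. Sparcl1 (chromosome 5, 104079111 to 104113733) was at 2379, 2577, 2523 and 2529.6 CPM in BPA replicates 1 to 4 and at 2406, 2250.1, 2415 and 2271 CPM in Control replicates 1 to 4. BPA replicates 2, 3 and 4 lay above every control, and BPA replicate 1 lay between the controls. The means were 2502 ± 85.2 CPM in BPA mice and 2335.5 ± 87.1 CPM in controls (SD, n = 4 each), a log2 fold change of 0.099 ± 0.040, or 1.07-fold (95% interval 1.01 to 1.14; edgeR unadjusted p = 0.0268, adjusted p = 0.955). The unadjusted p ran from 0.0117 to 0.0853 on leaving out 1 library.

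None of the other secreted genes was at an unadjusted p under 0.05. Clu, an extracellular chaperone and apolipoprotein, was at 673 ± 4.61 CPM in BPA mice and 655 ± 34.4 CPM in controls, and Cpe at 1999 ± 60.4 CPM in BPA mice and 1994 ± 109 CPM in controls (SD, n = 4 each). Bcan, the proteoglycan brevican of perineuronal matrix, was the 1 gene with a negative estimate, at -0.053 ± 0.051. Agt, the angiotensin precursor, had a log2 fold change of 0.086 ± 0.095, Pla2g7, a phospholipase that inactivates platelet-activating factor, 0.057 ± 0.068, Entpd2 0.056 ± 0.16 and Htra1, a secreted protease, 0.0089 ± 0.068. Agt ran from 0.022 without Control replicate 4 to 0.17 without BPA replicate 4 (unadjusted p = 0.0434 by edgeR), and Bcan from -0.078 without Control replicate 3 to -0.020 without Control replicate 4. Without BPA replicate 4, Pla2g7 was at -0.012, Htra1 at -0.038 and Cpe at -0.011, and without BPA replicate 3 Entpd2 was at -0.091. Htra1 was also at -0.0063 without BPA replicate 2 and -0.019 without Control replicate 2, and Cpe at -0.0045, -0.016 and -0.011 without BPA replicate 1, Control replicate 2 and Control replicate 3, taken singly. Pla2g7 overlaps a gene on the opposite strand and Entpd2 shares exon bases with Npdc1 on the same strand, so both counts are uncertain.

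By library, the 35 genes summed to similar levels. Their summed CPM was 9321.5 to 9674 in BPA mice and 9064 to 9529 in controls. They held 0.932 to 0.957% of counts in BPA mice and 0.898 to 0.949% in controls. Sparcl1 and Cpe weigh most in these sums and shares. Their means were 2502 and 1999 CPM in BPA mice and 2335.5 and 1994 CPM in controls. The median deviation of the 35 genes from their mean over 8 libraries ran from -0.016 to 0.034 log2 units in BPA mice and from -0.025 to 0.0070 in controls. BPA replicate 4 had the highest value of all 8 libraries for 11 of the 35 genes and the lowest for 8 of them. The median biological coefficient of variation within groups was 7.01% for the 35 genes and 7.45% for all genes tested. It ran from 4.83% for Slc39a12 and 4.86% for Hepacam to 13.4% for Id3, 15.1% for Entpd2 and 18.0% for Etnppl.

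Astrocyte genes outside the 35 were read in the same fit. Of 34 further genes of astrocytes, 0 passed and 2 (5.88%) were at an unadjusted p under 0.05, against 4.52% of all genes tested. Of the 34, 16 had positive and 18 negative estimates, and the median log2 fold change was -0.0078. The one with the smallest p was Slc1a2, the main glutamate transporter, at 6581, 6656, 6947.5 and 7724 CPM in BPA replicates 1 to 4 and at 7772, 8174, 7846 and 9296 CPM in Control replicates 1 to 4, with every BPA mouse below every control (-0.25 ± 0.061; edgeR adjusted p = 0.955). Apoe, the lipid carrier, came next at 1120, 1177, 1090.2 and 1158 CPM in BPA replicates 1 to 4 and at 1063, 1058, 1043 and 1053 CPM in Control replicates 1 to 4. Every BPA mouse lay above every control for Apoe (0.11 ± 0.038; edgeR adjusted p = 0.955). Groups did not overlap for these 2 of the 34 genes (5.88%), against 2.79% of all genes tested. Every BPA library was deeper than every control library, so BPA and library total cannot be told apart for Slc1a2 and Apoe.

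Of 36 genes described in reactive astrocytes, 29 had enough counts to test; 0 passed and 4 (13.8%) were at an unadjusted p under 0.05, against 4.52% of all genes tested. Of these 29, 16 had positive and 13 negative estimates, with a median log2 fold change of 0.0092. Their summed CPM was 293 to 328 in BPA mice and 291 to 318 in controls. The 2 with the smallest p were Fkbp5, a co-chaperone of steroid receptors that many cell types make, at 61.7 ± 1.66 CPM in BPA mice and 56.4 ± 1.13 CPM in controls, and Ptx3, a secreted pentraxin, at 0.325 ± 0.126 CPM in BPA mice and 0.545 ± 0.076 CPM in controls (SD, n = 4 each). The log2 fold change was 0.13 ± 0.041 for Fkbp5 and -0.73 ± 0.28 for Ptx3 (edgeR adjusted p = 0.955 for each). Every BPA mouse lay above every control for Fkbp5. Groups did not overlap for that 1 of the 29 genes (3.45%), against 2.79% of all genes tested. BPA and library total cannot be told apart for Fkbp5 and Ptx3 either. Ptx3 was low throughout, at 0.207 to 0.504 CPM in BPA mice and 0.457 to 0.642 CPM in controls.

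Lists of the other cell types also held 0 genes that passed. The median log2 fold change was -0.018 for neuron markers (7 of 15 positive), -0.033 for oligodendrocyte lineage markers (5 of 16), -0.024 for microglia markers (6 of 15) and 0.0051 for endothelial and pericyte markers (8 of 15). It was -1.26 for choroid plexus markers (0 of 12 positive), among which Folr1 was at 8.34 CPM in Control replicate 2 and at 0.168 to 2.17 CPM in the other 7 libraries, and -0.43 for ependymal markers (0 of 10 positive), which were also highest in Control replicate 2. With BPA replicate 3 and Control replicate 2 both left out, 0 of the 35 astrocyte markers passed and their median log2 fold change was -0.0013.

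**Figure D5:**
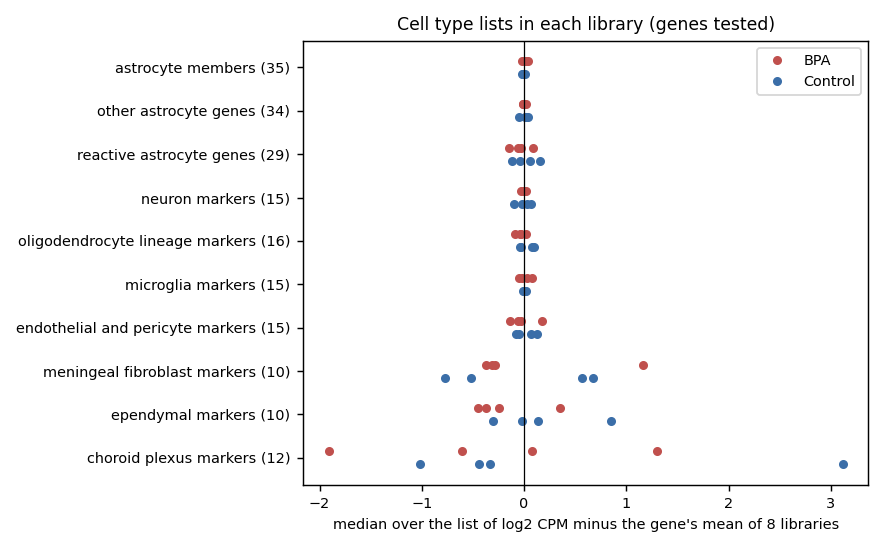
Median over each list of the log2 CPM minus the gene's mean over 8 libraries, 1 point per library, BPA points above control points, with the number of genes tested in brackets. The astrocyte markers lie within -0.025 to 0.034 in every library, while choroid plexus markers reach 3.12 in Control replicate 2 and 1.30 in BPA replicate 3.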

How the data were processed

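Hippocampal polyA RNA of 8 mice was sequenced from stranded ScriptSeq v2 libraries, per the labels' protocols. The authors deposited raw read counts per gene symbol, with whole numbers that are not normalized. Trimmomatic 0.32, STAR 2.3.0e, featureCounts 1.5.0, DESeq2 and the mm10 build are named in the submitters' processing notes; the sources used here do not say whether reads were counted by strand. Genes follow refGene, per the file headers. Columns were matched to mice by the library code in the sample titles.

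From these counts, genes were filtered with filterByExpr, scaled with TMM and tested with the quasi-likelihood test of edgeR 4.0.16 in R 4.3.3, with a group term, two-sided, and Benjamini-Hochberg adjustment over 15434 genes at 0.05. Standard errors come from the test statistic. The procedure was tested on simulated data. Of 24527 rows, 3750 were empty in all libraries. Replicates of a group differed by more than sampling noise, with a chi-square of 10.0 to 24.8 for each degree of freedom, and all 8 were kept as separate samples. Same-numbered BPA and control libraries did not deviate together (correlations -0.37 to 0.070), so the numbers were not taken to pair mice. Lengths, positions and overlaps come from GENCODE M21 on GRCm38, the assembly of mm10, and 97.5% of tested genes had a length. Deviations by library used log2(CPM + 0.1).

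The members and gene lists were chosen with earlier results of these data known, so none is independent evidence. Named members were the 8 with the smallest p and Gfap, Aqp4, Aldh1l1, Gja1, S100b and Sox9; per-library values of Vim, Id3, Atp1b2, Etnppl and Ndrg2 were added after their values were seen. At most 2 genes of any other list were named, from those with the smallest p. Alternatives were DESeq2 1.42.0, relative log expression scaling, no filter, a replicate block, thinned libraries and each library left out.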

Additional observations from a re-analysis of the deposited data

Results flagged for a closer look

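For each of the 35 genes and each group of 4 mice, the highest and lowest library was compared with the rest of its group by Dixon's gap ratio at its 95% critical value. For independent normal values it picks out about 1 in 20 groups by chance, and of the 70 groups examined it picked out 9. It was not run over all genes tested, and genes read in the same libraries are not independent. Whether 9 is more than other genes would give was therefore not tested. Among BPA mice, replicate 4 was highest for Ndrg2 at 576 CPM (455 to 457 CPM in the others) and for Aldoc at 426 CPM (392 to 397 CPM in the others), and lowest for Agt at 15.6 CPM (20.4 to 20.6 CPM in the others). BPA replicate 3 was lowest for Mt3 at 45.2 CPM (53.4 to 54.0 CPM in the others). Among controls, replicate 3 was highest for Atp1b2 at 891 CPM (687 to 699 CPM in the others). Control replicate 1 was highest for Hepacam at 93.4 CPM (87.2 to 87.4 CPM in the others) and for Aldh1l1 at 26.7 CPM (22.7 to 23.2 CPM in the others). Control replicate 2 was lowest for S100b at 86.9 CPM (94.3 to 95.7 CPM in the others) and for Aldoc at 372 CPM (399.7 to 403 CPM in the others).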

How the results depend on the processing

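Under each setting run, 0 of the 35 genes passed the adjusted threshold (lowest adjusted p of a member 0.629, without Control replicate 3), and the count over all genes was 0 apart from 7 with DESeq2 (587 at an unadjusted p under 0.05). With edgeR 698 genes had an unadjusted p under 0.05, 354 without BPA replicate 2 and 1167 without Control replicate 3. The members' median log2 fold change ran from 0.00084 to 0.035 on leaving out 1 library, and was 0.011 with the replicate block. That block left 0 genes called, and 2 members and 498 of 15434 genes tested at an unadjusted p under 0.05. The following estimates changed sign, and the cause was not tested. With relative log expression scaling Vim was at -0.0013 and Acsbg1 at -0.0021; with DESeq2 Acsbg1 was at -0.0021; with the replicate block Vim was at -0.0026 and Acsbg1 at -0.0024; with thinned libraries Vim was at -0.0071, Id3 at 0.023 and Entpd2 at -0.064. With both choroid-rich libraries left out, a setting chosen after seeing the data, Vim was at -0.048, Hepacam at -0.019, Ppp1r3c at -0.0097, Prdx6 at -0.0067, Cpe at -0.0013 and Entpd2 at -0.094. Leaving out 1 library at a time, the log2 fold change crossed 0 for Acsbg1 (-0.032 to 0.044), Atp1b2 (-0.053 to 0.082), Cldn10 (-0.038 to 0.080), Cpe (-0.016 to 0.041), Entpd2 (-0.091 to 0.19), Etnppl (-0.050 to 0.29), Gfap (-0.069 to 0.032), Hepacam (-0.0080 to 0.038), Htra1 (-0.038 to 0.076), Id3 (-0.15 to 0.078), Mlc1 (-0.028 to 0.042), Ndrg2 (-0.072 to 0.050), Pla2g7 (-0.012 to 0.10), Ppp1r3c (-0.018 to 0.10), Prdx6 (-0.011 to 0.077), Slc7a10 (-0.084 to 0.035) and Vim (-0.12 to 0.080). At an unadjusted p under 0.05 there were 2 to 6 members over these settings, and 354 to 1167 of all genes tested.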
